A study of Arabidopsis thaliana with 29 samples.

Results

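A set of 42 probe sets was lower after abscisic acid (ABA) and higher after methyl jasmonate (MeJA) in A. thaliana seedlings of 2 transgenic genotypes, and is described here in wild type (WT), after ACC and gene by gene. Its members were chosen by the ABA, MeJA and control signals of the transgenic lines. A probe set, the group of probes that measures 1 transcript on the ATH1 array, was a member when its mean log2 signal was at least 0.7 below the control mean after ABA and at least 0.7 above it after MeJA, in PV-NES and in PV-NLS alike. Of 22746 probe sets that are not array controls, 43 met this rule, and AT1G66100 was left out. The annotation names 1 gene for 19 members, several genes for 1 (AT3G45660 and NAXT1) and no gene for 22, so most of what is said of function rests on the 19.

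All seedlings were of the Col-0 ecotype, either WT or expressing parvalbumin, a protein that binds and buffers Ca2+, in the cytosol (PV-NES, with a nuclear export signal) or in the nucleus (PV-NLS, with a nuclear localization signal). Stratification took 3 days and growth in a chamber 3 days (22 °C, a light period of 16 h and a dark period of 8 h). The seedlings then spent 5 days on hormone-free medium or on medium that held ABA at 10 μM, MeJA at 50 μM or ACC at 1 μM. The 29 arrays form 12 groups, with 1 array per treatment for each of 3 independent lines per transgene (numbered 1, 7 and 11 for PV-NES, and 4, 5 and 8 for PV-NLS), 2 WT controls and 1 WT array per hormone. The rule used 18 of the arrays and not the other 11, which are the WT and ACC arrays. RNA came from whole seedlings, so fewer cells of a type and less RNA per cell cannot be told apart, and the WT arrays are the only hormone data from plants without a transgene.

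Jasmonates are lipid-derived hormones that switch on defence against insects and some pathogens by releasing transcription factors from JAZ repressors. ABA is the hormone of water deficit and seed dormancy, and it acts together with jasmonate on some defence genes and against it on others, in part through different transcription factors. ACC is the precursor of ethylene, a gas that acts with jasmonate on many defence genes.

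Arrays of 1 group correlated across probe sets with r from 0.982 to 0.997, and the 2 WT controls with 0.984. These 2 controls stood apart over the members: control 1 was lower than control 2 in 32 of 42, by a median of -0.40 on the log2 scale (from -2.44 to 1.43), while over all probe sets 47.1% were lower and the median was 0.02. Results that rest on WT are therefore also given without 1 of the controls where that changed a call. The members were not dim as a group. Their mean control signal was 3.50 to 9.38 (median 6.44, against 5.33 for all probe sets), with 32 above and 9 below the median of every array. The rule used the PV-NES and PV-NLS controls and asks for a fall of at least 0.7. Probe sets near the floor can hardly meet it, so nothing is read from the difference. The seedling tissues were covered by few markers that 1 gene names alone, of which 2 of 14 listed for photosynthetic cells, 3 of 14 for root cells and 2 of 5 for guard cells were measured. Both photosynthetic genes were bright on all arrays (mean log2 signal of the pair 11.60 to 12.45).

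**Figure D1:**
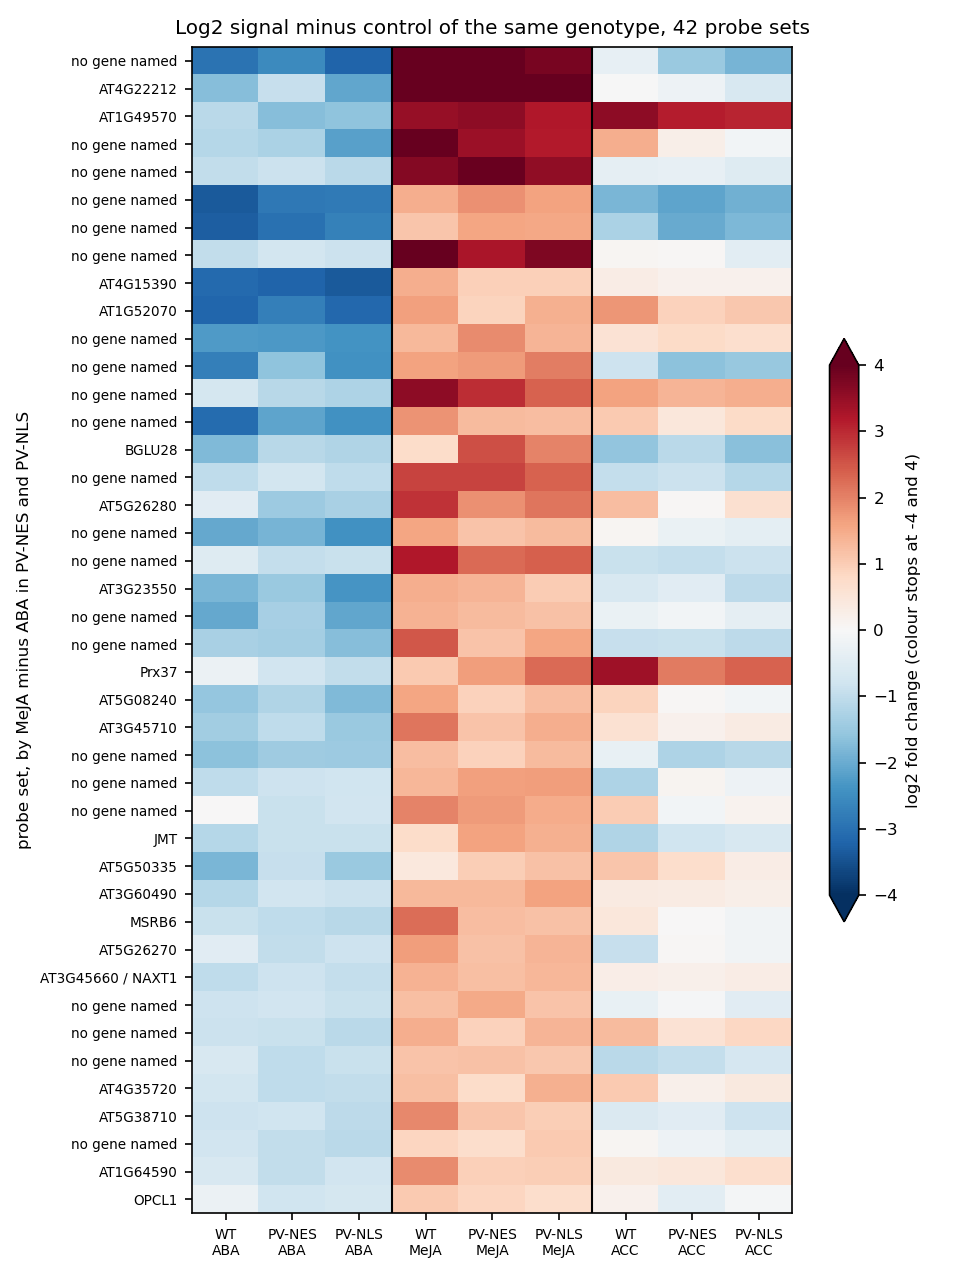
Log2 signal minus the mean control signal of the same genotype for the 42 probe sets (rows, in order of MeJA minus ABA over PV-NES and PV-NLS) after ABA, MeJA and ACC in each genotype (columns), with colours that stop at -4 and 4. The ABA and MeJA columns of PV-NES and PV-NLS chose the members; the WT columns did not, and there the ABA column is blue in 41 of 42 rows and the MeJA column red in 42.

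In WT, whose arrays did not choose the members, the same directions were found. The WT ABA array was below the mean of its controls in 41 of 42 members (50.7% of all probe sets), and the WT MeJA array was above it in 42 (54.4%). The ABA array was below both controls in 41 members (36.1% of all probe sets) and the MeJA array above both in 42 (41%), and 41 showed both (10.5%). The exception was a probe set with no gene named, whose ABA value lay 0.02 above the control mean. The 3 hormones share the WT controls, so a control that is low or high moves all 3 responses. The difference between the WT MeJA array and the WT ABA array does not use the controls. It was at least 1 in all 42 members (3.85% of all probe sets), and ran from 1.29 to 8.17 with a median of 3.30.

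A gene was called where the log2 fold change was beyond 1 in either direction and the adjusted p was under 0.05 in limma's moderated test over all probe sets. By this rule 20 of the 42 were lower after ABA in WT (2.08% of all probe sets), 34 were higher after MeJA (2.88%), and 14 were both, of only 20 probe sets on the whole array (0.0879%). The lone WT arrays have no spread of their own, and their error was taken from the other groups. Without WT control 1 the counts were 19, 22 and 8, and with the WT arrays alone, which leave 1 residual degree of freedom, they were 3, 7 and 0. The same members did not stay called: leaving out either WT control both removed and added calls, after ABA and after MeJA. The median response in WT was -1.11 after ABA (from -3.36 to 0.02) and 1.57 after MeJA (from 0.41 to 5.21). PV-NES, whose lines helped to choose the members, had medians of -1.02 and 1.33, and PV-NLS likewise -1.22 and 1.42.

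**Figure D2:**
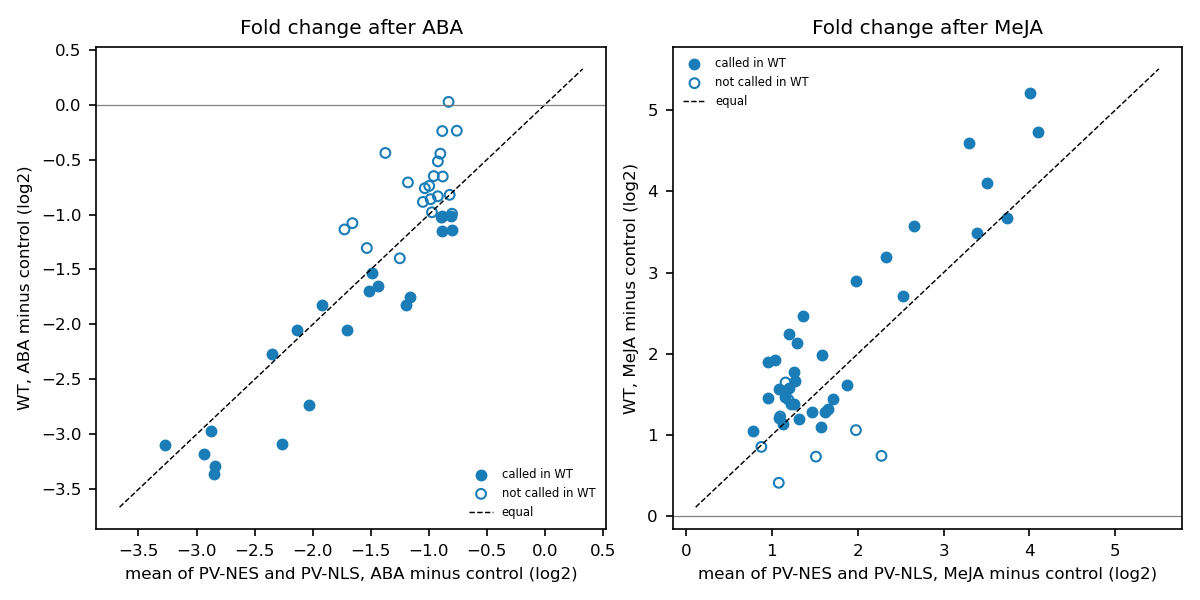
WT log2 fold change (vertical axis) against the mean of PV-NES and PV-NLS (horizontal axis) after ABA and after MeJA, 1 point for each of 42 probe sets, filled where the WT change was called. The dashed line marks equal change; the horizontal values chose the members. Filled points number 20 after ABA and 34 after MeJA.

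The largest span between the hormones among named genes belonged to AT4G22212, which encodes a defensin-like protein, a small secreted peptide of a family with antimicrobial members. Its log2 signal was 5.82 and 7.67 in the WT controls, 5.05 after ABA and 11.48 after MeJA. In PV-NES lines 1, 7 and 11 it was 6.47, 6.58 and 7.11 in the controls, 5.70, 5.93 and 5.73 after ABA and 11.29, 10.02 and 11.27 after MeJA. The MeJA arrays were above every other array by more than 2 units, and the ABA arrays were below all controls of their own genotype, by less. In WT AT4G22212 rose after MeJA by 4.73 (SE 0.50, adjusted p = 5.63e-07 by limma) and fell by 1.69 after ABA (SE 0.50, adjusted p = 0.0304). The fall depended on the WT controls, being -2.61 without control 1 (adjusted p = 5.32e-04) and -0.77 without control 2 (adjusted p = 0.299), and did not pass with trended and robust variances (adjusted p = 0.0576).

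The reverse balance was seen for AT4G15390, of the HXXXD-type acyltransferase family, enzymes that join acyl groups to plant metabolites. It was bright without hormone, at 8.96 and 8.54 in the WT controls, and stood at 5.65 after ABA and 10.21 after MeJA. In PV-NES lines 1, 7 and 11 the controls were 9.02, 8.92 and 9.21, the ABA arrays 5.81, 5.93 and 5.82 and the MeJA arrays 10.26, 9.72 and 10.03. The ABA, control and MeJA arrays did not overlap in any genotype. The log2 fold change after ABA in WT was -3.09 (SE 0.25, adjusted p = 1.21e-08 by limma) and that after MeJA 1.46 (SE 0.25, adjusted p = 3.04e-04).

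AT1G52070, of the jacalin-related lectins, which bind sugars, behaved like AT4G15390 after ABA. Its signal was 5.87 and 6.18 in the WT controls, 2.85 after ABA and 7.67 after MeJA. The ABA arrays of PV-NES (3.25, 3.65 and 3.66) and PV-NLS (3.19, 3.32 and 3.29) were all more than 2 units below their controls (lowest 5.98 and 5.86). In WT it fell by 3.18 after ABA (SE 0.55, adjusted p = 5.07e-04 by limma). The value after MeJA in WT was 1.65 (SE 0.55, adjusted p = 0.0528), short of the threshold. Without PV-NES line 7, in which the MeJA array (5.88) did not exceed the control (5.98), the adjusted p of that WT change was 0.00273, since the spread is shared by all groups.

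AT1G49570 and Prx37 encode class III peroxidases, secreted enzymes that use hydrogen peroxide to cross-link or loosen cell walls. AT1G49570 stood at 6.30 and 4.98 in the WT controls, 4.56 after ABA and 9.13 after MeJA. It rose after MeJA in WT by 3.48 (SE 0.49, adjusted p = 3.36e-05 by limma), and its WT value after ABA was -1.08 (SE 0.49, adjusted p = 0.174). The same value was -1.74 without WT control 2 (adjusted p = 0.0293). Prx37 moved less in WT, from 5.19 and 5.22 in the controls to 4.96 after ABA and 6.27 after MeJA. Neither WT change of Prx37 was called (ABA -0.24, adjusted p = 0.752; MeJA 1.06, adjusted p = 0.0528, limma), although the MeJA value passed without PV-NES line 11 (adjusted p = 0.0293), without PV-NLS line 4 (0.0398) or with dim probe sets left out (0.0404).

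BGLU28, a beta-glucosidase known for its rise under sulfur deficiency, was at 5.97 and 6.37 in the WT controls, 4.42 after ABA and 6.91 after MeJA. In PV-NES lines 1, 7 and 11 it went from 6.14, 5.33 and 4.68 to 4.52, 3.96 and 4.30 after ABA and to 8.49, 8.24 and 7.13 after MeJA. Line 1 was the highest of the 3 lines under every treatment, and the ABA and MeJA arrays did not overlap. BGLU28 was called lower after ABA in WT (-1.75, SE 0.55, adjusted p = 0.0434 by limma), a call that was lost when either WT control was left out (adjusted p = 0.0602 and 0.136), without PV-NES line 7 (0.0607) or PV-NLS line 4 (0.0626), and with trended and robust variances (0.0759). Its WT value after MeJA was 0.74 (SE 0.55, adjusted p = 0.429), against the 2.57 of PV-NES and the 1.99 of PV-NLS that chose it.

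Of 14 listed genes of the jasmonate pathway, only 2 had a probe set that names them alone, and both were members. OPCL1 encodes the ligase that activates a jasmonate precursor for beta-oxidation, and JMT the methyltransferase that makes MeJA from jasmonic acid. OPCL1 was the member nearest the thresholds and had 6.30 and 6.47 in the WT controls, 6.15 after ABA and 7.44 after MeJA. It rose after MeJA in WT (1.05, SE 0.23, adjusted p = 0.00425 by limma), a change of 0.97 without WT control 1, and its WT value after ABA was -0.24 (adjusted p = 0.602). JMT was dim, with 4.21 and 3.50 in the WT controls, 2.71 after ABA and 4.59 after MeJA, and its ABA and MeJA arrays lay outside both controls. In WT it fell by 1.15 after ABA (SE 0.26, adjusted p = 0.00514 by limma), or by 0.79 without WT control 1 (adjusted p = 0.0614). The MeJA value of JMT was 0.74 (adjusted p = 0.065), or 1.09 without that control (adjusted p = 0.0129). JMT lay below the median of every array, so its folds are uncertain in size.

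Transport proteins were represented by 2 genes and the shared probe set. AT3G23550 encodes a MATE efflux protein, of a family that exports organic compounds. It was 7.40 and 6.91 in the WT controls, 5.33 after ABA and 8.59 after MeJA. Its fall after ABA in WT was called (-1.82, SE 0.49, adjusted p = 0.0166 by limma, 0.0828 without WT control 1), and its value of 1.44 after MeJA was not (SE 0.49, adjusted p = 0.0546), but passed with the line as a block (adjusted p = 0.0137).

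AT3G45710 belongs to the nitrate and peptide transporter family, and the probe set shared by AT3G45660 and NAXT1, a nitrate exporter of the plasma membrane, to the same family. AT3G45710 was at 5.63 and 5.94 in the WT controls, 4.39 after ABA and 7.92 after MeJA. It rose after MeJA in WT by 2.13 (SE 0.53, adjusted p = 0.00971 by limma, 0.0615 without WT control 1), and its value of -1.40 after ABA (adjusted p = 0.0936) passed with the line as a block (adjusted p = 0.0358). The shared probe set of AT3G45660 and NAXT1 changed by -1.03 (adjusted p = 0.0656, limma) and 1.38 (adjusted p = 0.0124), and cannot be divided between its genes. These loci lie in 1 run of genes on chromosome 3, but the measured genes between them were not members. AT3G45680 was higher by 0.98 (WT), 1.12 (PV-NES) and 1.17 (PV-NLS) after ABA and changed by 0.08, -0.00 and 0.09 after MeJA, and AT3G45670, AT3G45690 and AT3G45700 were not lower than -0.05 after ABA in any genotype.

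A pair of neighbours on chromosome 5 with no protein-coding gene between them, AT5G26270 and AT5G26280, were both members. AT5G26280 encodes a TRAF-like protein. It was 5.85 and 5.63 in the WT controls, 5.30 after ABA and 8.64 after MeJA, and AT5G26270 was 5.82 and 6.53, 5.73 and 7.84. AT5G26280 rose after MeJA in WT by 2.90 (SE 0.36, adjusted p = 6.02e-06 by limma) and AT5G26270 by 1.66 (SE 0.37, adjusted p = 0.00381, or 0.0568 without WT control 1). After ABA the WT values were -0.44 (adjusted p = 0.505) and -0.45 (adjusted p = 0.506), smaller than the means of -1.44 and -0.97 in PV-NES that chose them. AT5G26260, on the other side of AT5G26270, was raised by MeJA (WT 2.82, PV-NES 2.08, PV-NLS 2.61) but had values above 0 after ABA (0.91, 0.39 and 0.36). It was looked up for its position after the members were known.

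AT3G60490 encodes a transcription factor of the AP2/ERF family. Its signal was 4.13 and 4.68 in the WT controls, 3.26 after ABA and 5.69 after MeJA, and the ABA, control and MeJA arrays were separate in both transgenic genotypes as well. It was called in both directions in WT (ABA -1.14, SE 0.28, adjusted p = 0.0103; MeJA 1.28, SE 0.28, adjusted p = 0.00395, limma). The first call needed WT control 2 (without it -0.87, adjusted p = 0.0795) and the second WT control 1 (without it 1.01, adjusted p = 0.0575).

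A pair of metabolic enzymes were members, namely MSRB6, a methionine sulfoxide reductase that repairs oxidised methionine, and AT5G38710, a proline dehydrogenase, which starts the breakdown of proline. MSRB6 was 6.88 and 7.64 in the WT controls, 6.38 after ABA and 9.51 after MeJA. AT5G38710 was 3.32 and 3.43, 2.54 and 5.30, and its controls lay below the median of every array. Both rose after MeJA in WT, MSRB6 by 2.25 (SE 0.49, adjusted p = 0.00354 by limma) and AT5G38710 by 1.93 (SE 0.28, adjusted p = 5.17e-05), and neither was called after ABA there (-0.89 and -0.83, adjusted p = 0.279 and 0.058). AT1G64590, of the NAD(P)-binding Rossmann-fold family, showed the same: it rose by 1.89 after MeJA (SE 0.46, adjusted p = 0.00769 by limma, 0.0716 without WT control 1), with -0.65 after ABA (adjusted p = 0.417).

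Of 3 further named members, for which no role is given here, AT5G08240 was called in both directions in WT. Its signal was 5.63 and 6.12 in the controls, 4.34 after ABA and 7.45 after MeJA, which is -1.53 (SE 0.23, adjusted p = 7.66e-05 by limma) and 1.57 (SE 0.23, adjusted p = 4.22e-05). AT5G50335 was called lower after ABA (-1.82, SE 0.25, adjusted p = 4.23e-05 by limma) with 0.41 after MeJA (adjusted p = 0.33). AT4G35720 was called higher after MeJA (1.21, SE 0.35, adjusted p = 0.0271 by limma, 0.0506 without PV-NES line 11, or 0.98 with adjusted p = 0.17 without WT control 1) with -0.74 after ABA (adjusted p = 0.199). Over the 19 named members, 9 were thus called lower after ABA in WT, 13 higher after MeJA and 4 (AT4G22212, AT4G15390, AT5G08240 and AT3G60490) both ways. The shares given above are over all probe sets, and none is given for those that name 1 gene.

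**Figure D3:**
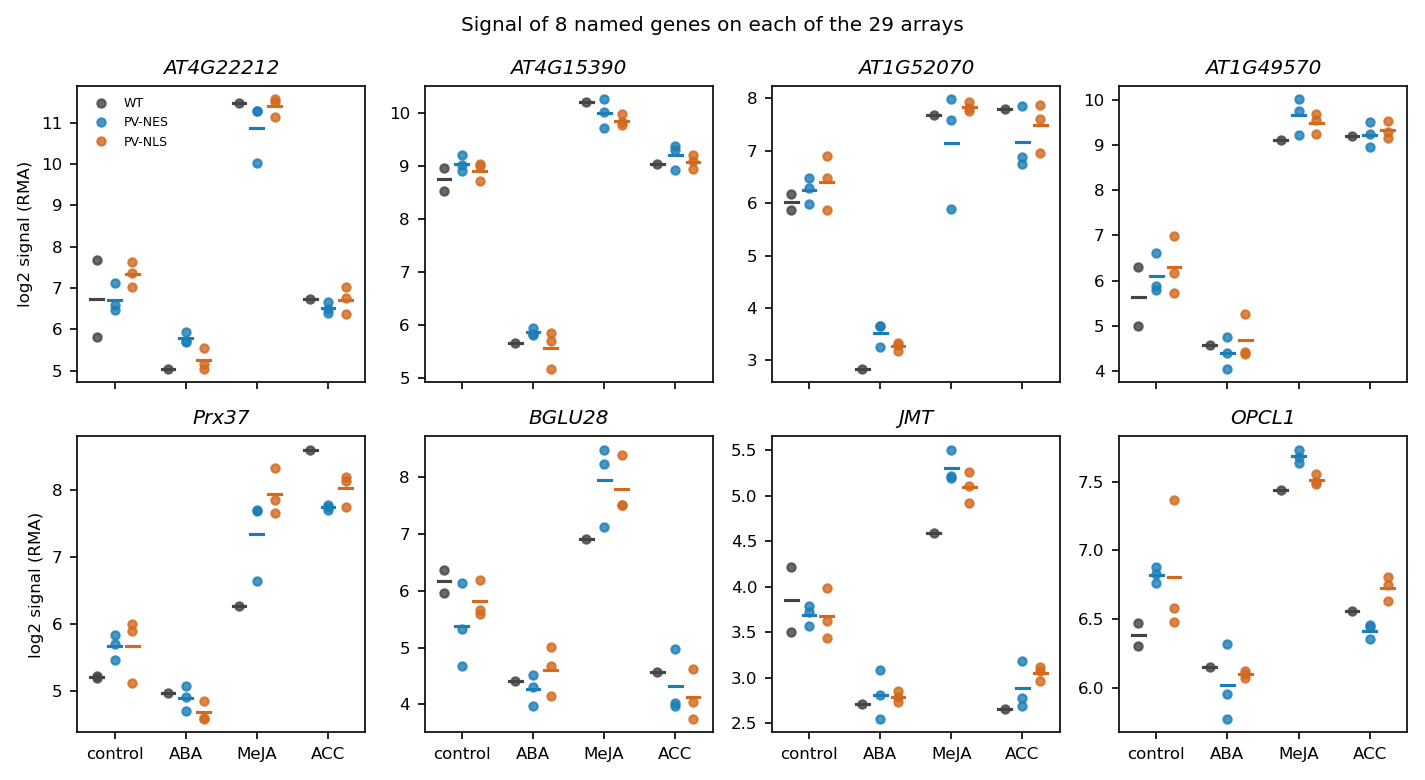
Log2 signal of 8 named genes on each of the 29 arrays (points), by treatment and genotype, with the group mean as a bar. AT4G22212 rises far with MeJA and AT4G15390 falls far with ABA, while AT1G49570 and Prx37 are raised by ACC as well as by MeJA; the vertical axes differ between panels.

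Among the probe sets with no gene named, 254828_at had the widest span of all members. Its signal was 5.26 and 7.71 in the WT controls, 3.52 after ABA and 11.69 after MeJA, a change of -2.97 (SE 0.71, adjusted p = 0.00805 by limma) and 5.21 (SE 0.71, adjusted p = 2.21e-05). The fall rested on the WT controls: it was -4.19 without control 1 (adjusted p = 2.73e-04) and -1.74 without control 2 (adjusted p = 0.0945), which is not called. The rise was 3.99 and 6.43 without each in turn (adjusted p = 4.10e-04 and 3.89e-07). With the WT arrays alone neither passed (adjusted p = 0.352 and 0.143). The probe set was chosen for display after its values were seen.

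The members also differed in which hormone moved them more. In both transgenic genotypes the fall after ABA was the larger change for 13 members, 4 of them named (AT4G15390, AT1G52070, AT3G23550 and AT5G08240), and the rise after MeJA for 22, 9 of them named. The order differed between the genotypes for the other 7. These values chose the members and carry no test. In WT, which did not, 10 of the 13 and 20 of the 22 had the same order.

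Line by line, all 42 members were lower after ABA in every one of the 6 lines, and 41 were higher after MeJA. The exception was AT1G52070 in PV-NES line 7. Hormone and control arrays did not overlap in either genotype for 41 members after ABA (8.78% of all probe sets had every ABA array below every control) and 37 after MeJA (12.1% had every MeJA array above). These arrays chose the members, so nothing is read from the line counts. The median SD over the 3 lines was 0.21 to 0.25 in the ABA and MeJA groups, and the largest was 1.11, after MeJA in PV-NES.

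PV-NES line 7 stood apart after MeJA. Its MeJA array was the lowest of the 3 PV-NES lines in 29 of 42 members (37.9% of all probe sets, and 59.1% of 763 other probe sets that MeJA raised by at least 0.7 in both genotypes). It lay a median of -0.33 from the mean of lines 1 and 11, against -0.22 for those 763 and -0.01 for all probe sets. On it 10 members were at least 1 log2 unit below that mean, for which no share of other probe sets is given. Of these, 5 were named: AT1G52070 (-1.90), MSRB6 (-1.66), AT3G45710 (-1.58), AT1G64590 (-1.42) and AT4G22212 (-1.26). MSRB6 was 9.35 and 9.33 in lines 1 and 11 but 7.68 in line 7, close to the 7.66 of that line's control. AT1G64590 was likewise 7.02, 6.27 and, in line 7, 5.23, with a control of 5.19.

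The shift did not take all members. Line 7 was above the mean of the other lines in 10, Prx37 (0.53) and BGLU28 (0.43) among them. On the same array the root hair expansin genes EXPA7 (4.48, against 5.34 and 5.17 in lines 1 and 11) and EXPA18 (4.91, against 6.92 and 5.92) and the guard cell gene GC1 (7.64, against 8.33 and 8.46) were low, and PYK10, an abundant root beta-glucosidase gene, was 12.10 against 12.30 and 12.17. FAMA of the guard cells was 4.59, against 4.83 and 4.59, while the photosynthetic genes LHCB4.1 (12.08, against 11.92 and 11.99) and RCA (12.21, against 11.92 and 12.13) were higher than in either other line. The part of these cells in the result was not tested. Without line 7 the rule found 49 probe sets, 40 of them among the 42.

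**Figure D4:**
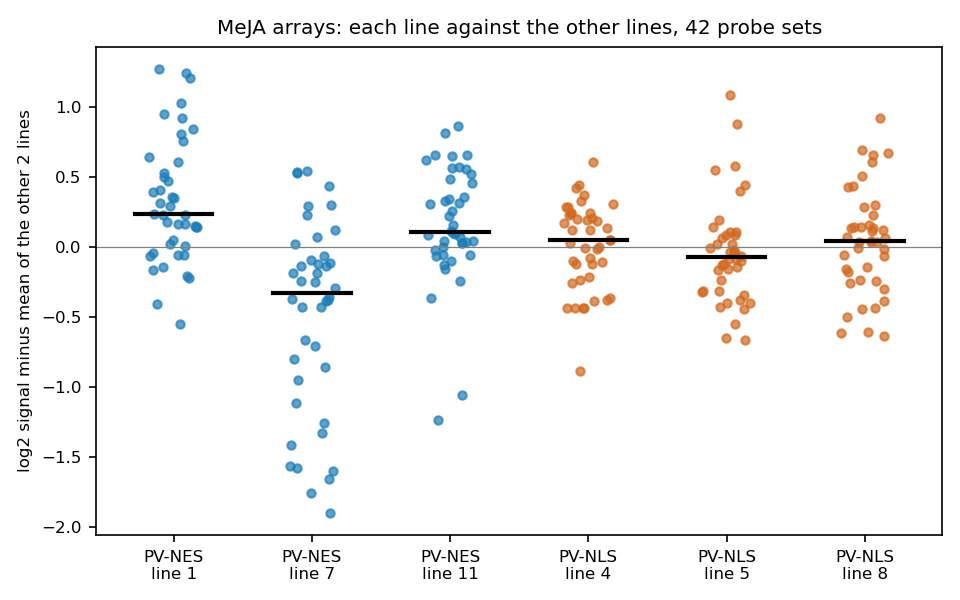
Log2 signal of each MeJA-treated line minus the mean of the other 2 lines of its genotype (vertical axis), 1 point for each of the 42 probe sets, with the median as a black bar. PV-NES line 7 has a median of -0.33 and a long tail down to -1.90, while the medians of the other lines lie between -0.08 and 0.23.

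ACC, which took no part in the choice, gave a divided response. Its arrays were compared with the controls, which the rule did use in PV-NES and PV-NLS and which the other hormones share. The median change was 0.07 in WT (from -1.83 to 3.57). It was -0.02 over the PV-NES lines and -0.18 over the PV-NLS lines. In WT 9 members were called higher (1.99% of all probe sets) and 5 lower (3.39%). PV-NES had 3 higher (0.317%) and 4 lower (0.361%), and 3 higher (0.479%) and 8 lower (0.629%) were found for PV-NLS. Without WT control 1 the count of higher members in WT was 5, without PV-NES line 11 the count of lower members in PV-NES was 2, and without PV-NLS line 4 that in PV-NLS was 3. The 3 called higher in PV-NES were the same as the 3 in PV-NLS and were among the 9 in WT. Called lower were 4 in both transgenic genotypes and 2 in all, none of which has a gene named. The share of all probe sets called in several genotypes is not given here, so nothing is read from these overlaps.

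Both peroxidase genes rose after ACC in all genotypes. AT1G49570 reached 9.22 in WT, where its controls were 6.30 and 4.98. The PV-NES lines had 8.95, 9.25 and 9.51 (controls 6.61, 5.78 and 5.89) and the PV-NLS lines 9.29, 9.54 and 9.16. The change was 3.57 (SE 0.49, adjusted p = 1.17e-04 by limma) for WT, 3.14 (SE 0.33, adjusted p = 4.91e-06) for PV-NES and 3.03 (SE 0.33, adjusted p = 1.17e-05) for PV-NLS. ACC and MeJA arrays of AT1G49570 covered much the same range, and both were separate from the controls.

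For Prx37 the WT array was the highest, at 8.60 after ACC against 5.19 and 5.22 in the controls and 6.27 after MeJA. The PV-NES lines had 7.78, 7.71 and 7.75 after ACC and the PV-NLS lines 8.14, 8.19 and 7.74. The rise of Prx37 was 3.40 for WT (SE 0.36, adjusted p = 2.06e-05 by limma), 2.08 for PV-NES (SE 0.24, adjusted p = 1.68e-05) and 2.36 for PV-NLS (SE 0.24, adjusted p = 6.41e-06). The third member that rose everywhere, 264647_at, names no gene and changed by 1.60, 1.34 and 1.45 (adjusted p = 0.00836, 0.00479 and 0.00125, limma). The PV-NES call of 264647_at was lost without line 7 (adjusted p = 0.0518) or line 11 (0.102), and the PV-NLS call without line 4 (0.0549). With WT arrays alone the WT calls of 264647_at, AT1G49570 and Prx37 were all lost.

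Another 4 named members were called higher after ACC in WT and not in PV-NES or PV-NLS. AT1G52070 was at 7.79, as high as with MeJA (1.77, SE 0.55, adjusted p = 0.0348 by limma), against 0.91 for PV-NES (adjusted p = 0.191) and 1.07 for PV-NLS (adjusted p = 0.0565). The WT call for AT1G52070 was lost without WT control 1 (adjusted p = 0.156), without PV-NES line 11 (0.0515) or PV-NLS line 5 (0.0575), with the line as a block (0.0538) and with trended and robust variances (0.0634). AT5G50335 rose by 1.12 (SE 0.25, adjusted p = 0.00524 by limma), more than its 0.41 after MeJA. AT5G26280 changed by 1.24 (adjusted p = 0.023, or 0.0628 and 0.062 without WT control 1 or 2), and AT4G35720 by 1.05 (adjusted p = 0.0493, or 0.262 without WT control 1, 0.0752 to 0.0815 without any 1 PV-NES line, 0.0632 without PV-NLS line 4, 0.0559 with arrays centred on their medians and 0.0599 with the line as a block). No difference between a transgenic genotype and WT in the ACC response passed an adjusted p of 0.05 for any member by limma's interaction contrast, which 254 of the 22746 probe sets passed for PV-NES (1.12%) and 425 for PV-NLS (1.87%). At an unadjusted p under 0.05 with a difference beyond 1, 5 members passed for PV-NES (3.35% of all probe sets) and 4 for PV-NLS (3.75%), so these genes are not shown to be particular to WT.

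**Figure D5:**
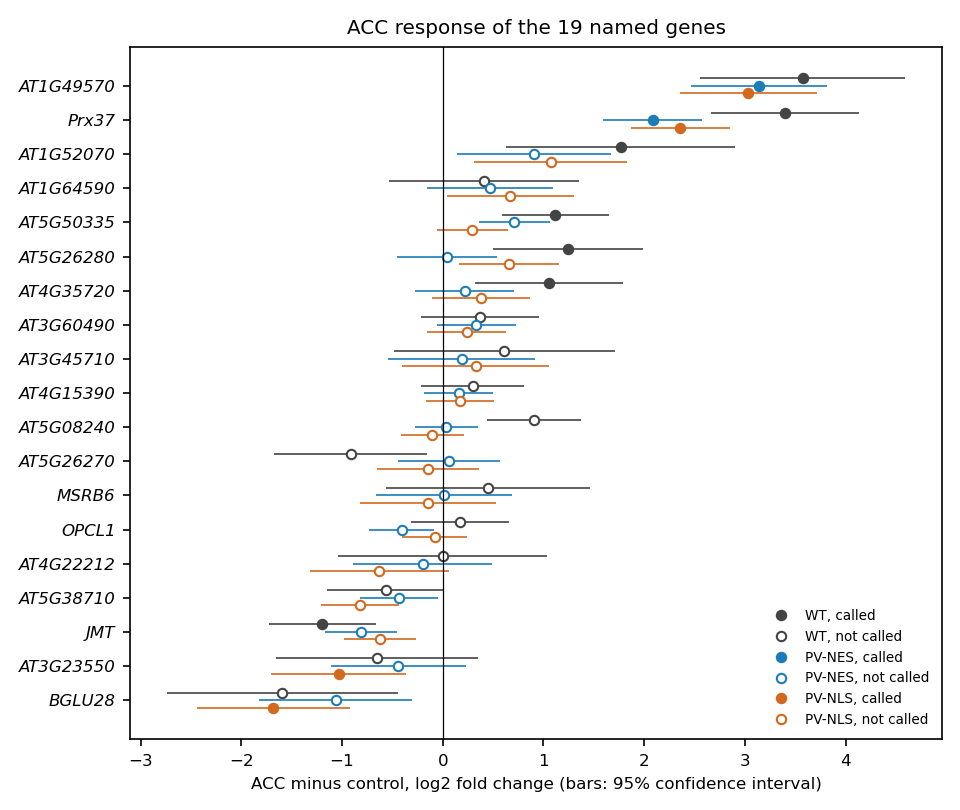
Log2 fold change after ACC of the 19 named genes, coloured by genotype, with the 95% confidence interval of limma's fit and filled points where the change was called. AT1G49570 and Prx37 lie at 2.08 or above in each genotype, and JMT, AT3G23550 and BGLU28 at or below -0.44.

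Named members that ACC lowered were few. BGLU28 was 4.57 in ACC-treated WT, 4.98, 3.96 and 4.02 over the PV-NES lines and 4.04, 3.74 and 4.63 over the PV-NLS lines, about the level that ABA left. The fall of BGLU28 was called in PV-NLS (-1.68, SE 0.37, adjusted p = 0.00496 by limma, but 0.0524 without line 4 and 0.0759 without line 5), against -1.59 for WT (adjusted p = 0.0572) and -1.06 for PV-NES (adjusted p = 0.117). JMT fell in WT by 1.19 (SE 0.26, adjusted p = 0.00364 by limma, 0.0646 without WT control 1). JMT changed by -0.81 for PV-NES (adjusted p = 0.0094, limma) and by -0.63 for PV-NLS (adjusted p = 0.0195), within the fold limit.

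AT3G23550 was called in PV-NLS (-1.03, adjusted p = 0.0376 by limma), but not without line 4 (-1.10, adjusted p = 0.0704) or line 8 (-0.94, adjusted p = 0.184), with any 1 PV-NES line left out (0.0547 to 0.068), with quantile normalization repeated (0.0501) or with trended and robust variances (0.0617). AT4G22212 and AT4G15390 were near their controls after ACC in every genotype, with values from -0.63 to 0.30, none called. The ACC-treated PV-NES and PV-NLS arrays, neither of which the rule used, were not distinguished in any member: the differences ran from -0.73 to 0.59 with a median of -0.07, limma called 0 members and 0 probe sets of the whole array (0%), and 3 members had an unadjusted p under 0.05, none with a difference beyond 1.

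Without hormone the genotypes differed by more than 1 log2 unit in some members, which was not tested. The PV-NES control mean differed from that of WT by -0.78 to 1.09 (median 0.17) and the PV-NLS mean by -0.35 to 1.12 (median 0.28). These values share the control arrays with the rule and with the WT responses.

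Genes of related pathways are given for comparison, from lists. A listed gene counts as measured where a probe set names it alone. Of 4 measured among 15 listed jasmonate-inducible defence and storage genes, 2 were called higher after MeJA in WT, and none is a member. THI2.1, a thionin, was higher by 8.01 and JRG21, a dioxygenase, by 6.71 in WT after MeJA. After ABA they had 0.16 and 1.31 there, and JRG21 was called higher. The others were PDF1.2 and PDF1.2b, plant defensin genes of near-identical sequence whose probe sets may share signal. Neither was called in WT after MeJA (2.81 and 2.00, adjusted p = 0.206 and 0.347, limma) or after ABA (-0.55 and -1.19, adjusted p = 0.868 and 0.639). In PV-NLS both were called lower after ABA (-2.62 and -3.23, adjusted p = 0.0418 and 0.00768, limma) and neither after MeJA (-0.56 and -1.42). Of 4 measured of 29 listed glucosinolate genes, which make the sulfur-rich defence compounds of the cabbage family, BCAT4 (1.61) and UGT74B1 (1.22) were called higher after MeJA in WT, with -0.15 and 0.39 after ABA. The 3 ABA-induced genes called of 4 measured (21 listed), COR15A, LEA4-5 and HIS1-3, were higher by 2.37, 4.57 and 3.95 after ABA in WT, and HIS1-3 alone was also called after MeJA (1.83). Each list is read beside medians over all probe sets of -0.01 after ABA and 0.04 after MeJA in WT.

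APS3, an ATP sulfurylase of sulfate assimilation and the only measured gene of 7 listed there, came close to the rule. It was lowered by ABA (WT -1.23, PV-NES -1.12, PV-NLS -1.13), had 0.43, 0.57 and 0.69 after MeJA, and was lowered by ACC (-1.74, -1.10 and -0.96). In WT its changes after ABA and ACC were called (adjusted p = 0.00424 and 2.88e-04, limma) and that after MeJA was not (adjusted p = 0.337). IGPS of tryptophan synthesis was called higher after MeJA in WT (1.47) with -0.16 after ABA. Both flavonoid genes, DFR and UF3GT, were called higher after MeJA in WT (1.73 and 2.17) and lower after ACC (-2.11 and -1.31). After ABA in WT they had 1.38 and 1.92, and only UF3GT was called higher. EXPA8, an expansin that loosens cell walls, was lower after ABA (-2.73) and after MeJA (-1.52), and EIN3, the central transcription factor of ethylene signalling, changed by -0.28, 0.22 and 0.18 after ABA, MeJA and ACC in WT, none called.

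Markers of cell types stand beside these results, and their part was not tested. The mean log2 signal of the 3 root genes was 7.03 and 7.61 in the WT controls, 7.62 after ABA and 7.80 after MeJA, and 0 of 3 were called there. The 3 differed. After ABA, in WT, PV-NES and PV-NLS, EXPA7 had 0.97, 1.22 and 1.30 and EXPA18 -0.02, 1.21 and 0.42. PYK10 had -0.07, -0.33 and -0.27. In PV-NES EXPA7 and EXPA18 were called higher after ABA. In PV-NLS EXPA7 was called higher after ABA, and both EXPA7 and EXPA18 after MeJA. PYK10 had 0.58, 0.26 and 0.31 after MeJA, within the fold limit, with an adjusted p under 0.05 by limma in WT and PV-NLS. Of the guard cell pair, GC1 was lower after ABA in WT (-1.33, called) and FAMA was not called, and neither was called after MeJA. In the transgenic genotypes GC1 was called lower after both hormones (PV-NES -1.57 and -1.18, PV-NLS -1.82 and -1.31). The photosynthetic pair was not called after any hormone in any genotype, but both genes were lower after MeJA in each, within the fold limit. LHCB4.1 changed by -0.47 (WT), -0.34 (PV-NES) and -0.42 (PV-NLS), with adjusted p = 0.00793, 0.00168 and 1.97e-04 by limma. RCA changed by -0.70, -0.38 and -0.84 in that order (adjusted p = 0.00592, 0.0124 and 3.07e-06). Both were lower after ACC in WT too (LHCB4.1 -0.74, adjusted p = 2.88e-04, and RCA -0.54, adjusted p = 0.0297, limma). LHCB4.1 was also lower after ACC in PV-NES (-0.28, adjusted p = 0.0393 by limma) and PV-NLS (-0.24, adjusted p = 0.0401), where RCA changed by -0.11 and 0.03. After ABA LHCB4.1 was lower in PV-NES (-0.42, adjusted p = 4.50e-04 by limma) and PV-NLS (-0.25, adjusted p = 0.017).

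Near the thresholds, OPCL1 was just inside both (ABA -0.81 and -0.71, MeJA 0.86 and 0.71, PV-NES first), and of the other named members AT3G60490 came closest for ABA (-0.76 and -0.85) and AT4G35720 for MeJA (0.74 and 1.42). Of the named probe sets just outside, those for ABA were AT2G18210 (-0.70 and -1.49) and AT4G11290 (-0.69 and -1.62), and those for MeJA AT3G05400 (0.68 and 1.13) and XTH20 (0.60 and 1.02), a xyloglucan endotransglucosylase of the cell wall. At a threshold of 0.5 the rule found 77 probe sets, and at 1 it found 17.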

How the data were processed

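Total RNA of seedlings was hybridised to Affymetrix ATH1 arrays. Per probe set, the deposited log2 signals had been made by the authors with RMA (background correction, quantile normalization and summary over probes). They were used without further normalization, and the number of arrays limits their precision. The table holds 22810 probe sets, 64 of them array controls that were not used. The platform annotation names 1 gene for 13513 probe sets (13436 matched to the reference gene table), several for 503 and none for 8730. Probe sets with several genes or none were tested under their own name.

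With limma 3.58.1 (R 4.3.3), a mean was estimated for each of 12 groups with 1 variance per probe set (17 residual and 5.94 prior degrees of freedom). Hormone groups were set against the untreated group of their genotype, and p-values were adjusted by Benjamini and Hochberg over 22746 probe sets. The fit was checked on simulated data, drawn as independent arrays with 1 variance per probe set in every group. That check cannot show whether the lone WT arrays have the spread of the lines, or what the pairing by line does. ABA and MeJA in PV-NES and PV-NLS chose the members, so no test of these contrasts is given for members. For the listed genes that are not members it is given. The p-values measure the spread between lines, which is assumed to hold for the lone WT hormone arrays too.

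The same lines were used under every treatment, so the line pairs the arrays. Deviations from the group means correlated with a median r of 0.00836 (PV-NES) and 0.108 (PV-NLS) within a line and of -0.0245 and -0.0593 between lines. The methods name no block, so blocking on the line is an alternative. Named members are those with 1 gene, up to 24 in order of MeJA minus ABA, together with those in a pathway list or called after ACC, the named probe sets nearest each threshold, and up to 4 called and 2 other genes of each list. Of 15 lists with 181 genes, 27 genes were counted as measured, which means that the annotation names that gene alone for a probe set. Other listed genes may lie on probe sets that name several genes or none. A low count therefore does not show that the array lacks the genes of a list. The glucosinolate breakdown, phenylpropanoid, and salicylic acid and pathogen defence lists had 0. The members, lists and rules were chosen with earlier results of these data known. Alternatives covered normalization, dim probe sets, 1 probe set per gene, variances, each line or control left out, WT alone, the fold limit, the thresholds of the rule and the methods' t-test. Those of single genes after ACC and of members with no gene named were added after the data were seen. Promoter and protein sequences were not used here.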

Additional observations from a re-analysis of the deposited data

Results flagged for a closer look

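In 3 members all samples of a genotype moved one way after ACC and all samples of another the opposite way, a pattern chance also gives in groups this small. AT5G26270 was higher in all 3 PV-NES lines, by a mean of 0.0618, and lower in WT (-0.92 from the mean, below both controls). The interaction contrast of limma gave a difference of 0.98 (adjusted p = 0.291). OPCL1 was lower in all PV-NES lines (mean -0.408) and above both WT controls in WT (0.17), with an interaction of -0.58 (adjusted p = 0.333). A member with no gene named was higher in the PV-NES lines (mean 0.0452) and lower in the PV-NLS lines (-0.43), with an interaction of 0.47 (adjusted p = 0.867). None of the 3 differences passed the test.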

How the results depend on the processing

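WT has 1 array per hormone, most members name no gene, and ATH1 signals near background compress folds. Counts moved as follows; the cause was not tested unless fewer samples or probe sets were used. With WT arrays alone, 3 members were called lower after ABA, 7 higher after MeJA, 0 both ways, and 0 higher and 0 lower after ACC. With dim probe sets left out, which removes 9 members, 5 were higher after ACC in WT. With no fold limit, 5 were higher and 7 lower after ACC in PV-NES, and 5 higher and 11 lower in PV-NLS. The shares of all probe sets at that setting are not given here, so nothing is read from these counts. The methods' t-test with Benjamini-Hochberg adjustment called 0 in either direction after ACC in each transgenic genotype. The rule found 77 members at a threshold of 0.5 and 17 at 1.

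With 1 line or WT control left out, counts in WT ran from 16 to 21 lower after ABA, 22 to 36 higher after MeJA, 8 to 16 both ways, and 5 to 11 higher and 4 to 6 lower after ACC. After ACC they ran from 2 to 3 higher and 2 to 5 lower in PV-NES and from 2 to 4 higher and 3 to 8 lower in PV-NLS, and stayed at 0 between them. The rule then found 38 to 49 members, and 41 to 42 lay outside the WT controls. With the replicate block (the line), 21 were lower after ABA, 34 higher after MeJA and 15 both ways in WT, 7 higher and 6 lower after ACC in WT, 3 and 5 for PV-NES, 3 and 8 for PV-NLS and 0 between the ACC-treated transgenic genotypes. Besides the genes given with the block above, it changed no call of a named member in WT after ABA or MeJA and removed none after ACC. No direction reversed: of 281 values of named members in WT after ABA 17 lost and 2 gained a call, of 281 after MeJA 19 lost and 12 gained one, and of 187 after ACC 31 lost one. Of 144 list counts 15 moved.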
